A study of Thermothelomyces thermophilus with 6 samples.

Results

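A set of 237 genes of the thermophilic fungus Myceliophthora thermophila (Thermothelomyces thermophilus) was low in mycelium on glucose and higher both on soluble starch and without any carbon source. The genes were chosen by their mean level in the 3 media, among the 9110 genes of the deposited table. Levels are reads per 1000000 counted reads of a library (CPM, scaled by library totals). A member had at least 3 CPM on starch, at least 2 times its glucose level on starch and also without carbon, and less than 2 times its no-carbon level on starch. In all, 242 genes met these limits, and 5 of them were set aside with the rule, which names 19 genes to leave out. All 6 RNA-seq libraries came from mycelium of strain ATCC 42464. It was precultured on 2% glucose in Vogel's salts (18 h, 45 °C), washed and held in the test medium for 4 h. The test media were 2% starch, no carbon and glucose, with 2 libraries each. The labels give no glucose concentration for the test medium and do not say whether replicates were separate cultures.

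Filamentous fungi that live on plant material keep many genes for the use of other carbon sources low while glucose is plentiful, a state known as carbon catabolite repression. A zinc-finger repressor, CreA in Aspergillus and Cre-1 in Neurospora, carries much of it. When sugar runs out, such genes can be transcribed again even if no new substrate is present, and fungi are thought to sample their surroundings with low amounts of secreted enzymes. Soluble starch is a glucose polymer, and mycelium obtains sugar from it only as secreted amylases release it. None of the 237 genes has a symbol other than its locus tag in the RefSeq table (237 of 237 matched), and neither source gives their products, so they are described by identifier and by level. No sequence of this fungus is printed.

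The rule read the levels in all 3 media, so every level and ratio of the members is a description and no test is read from it. Glucose was also the sugar of the preculture, and no library from before the move was analysed here, so a rise after the move off glucose and a fall on glucose cannot be told apart. CPM is a share of the reads of a library. A change in one transcript and an opposite change in the rest of the RNA cannot be told apart either. Library totals were 22539023 and 22975353 reads on starch, 21820858 and 17726204 without carbon, and 19591786 and 23635336 on glucose. At this depth 3 reads in a library correspond to 0.1269 to 0.1692 CPM.

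Expression without carbon at 2 or more times the glucose level was common, and keeping such a level on starch was not. Of 7636 genes with at least 3 CPM on starch, 1829 had at least 2 times the glucose level without carbon (24.0%). Only 259 of these 1829 genes, 14.2%, also had at least 2 times the glucose level on starch, and 242 of the 259 lay below 2 times the no-carbon level there. Over all 7636 genes, 5.97% had at least 2 times the glucose level on starch. Less than 2 times the no-carbon level on starch was seen for 75.7% of them. These percentages are the background of the limits that chose the members.

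**Figure D1:**
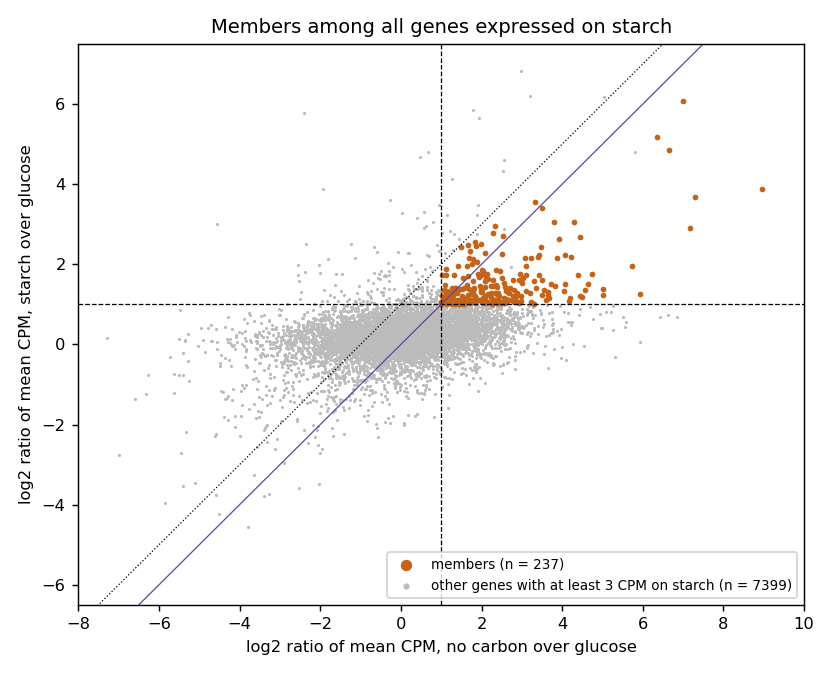
Each point is a gene with at least 3 CPM on starch, with the log2 ratio of mean CPM without carbon over glucose on the x axis and of starch over glucose on the y axis; the 237 members are orange and the other genes grey. Dashed lines mark the 2-fold limits, the dotted line marks starch at 2 times no carbon, and on the solid line both are equal. The members fill the upper right corner, and most lie below the solid line, that is, at a lower level on starch than without carbon.

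Together the members took 1.46% and 1.45% of the reads on starch, 3.21% and 3.13% without carbon, and 0.543% and 0.549% on glucose. The 10 members with the highest CPM on starch carried 52.9% and 52.6% of the members' reads on starch, 45.8% and 45.7% without carbon, and 50.8% and 51.4% on glucose. The order of the media was the same without these 10, at 0.687% and 0.689% of all reads on starch, 1.74% and 1.70% without carbon, and 0.267% in both glucose libraries. The median member had 16.0 and 16.6 CPM on starch, 33.0 and 32.1 CPM without carbon, and 5.97 and 5.88 CPM on glucose. Mean levels ran from 3.01 to 2612 CPM on starch, from 2.92 to 5055 CPM without carbon and from 0.322 to 1262 CPM on glucose. On starch, 155 members had at least 10 CPM, 25 at least 100 CPM and 2 at least 1000 CPM.

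**Figure D2:**
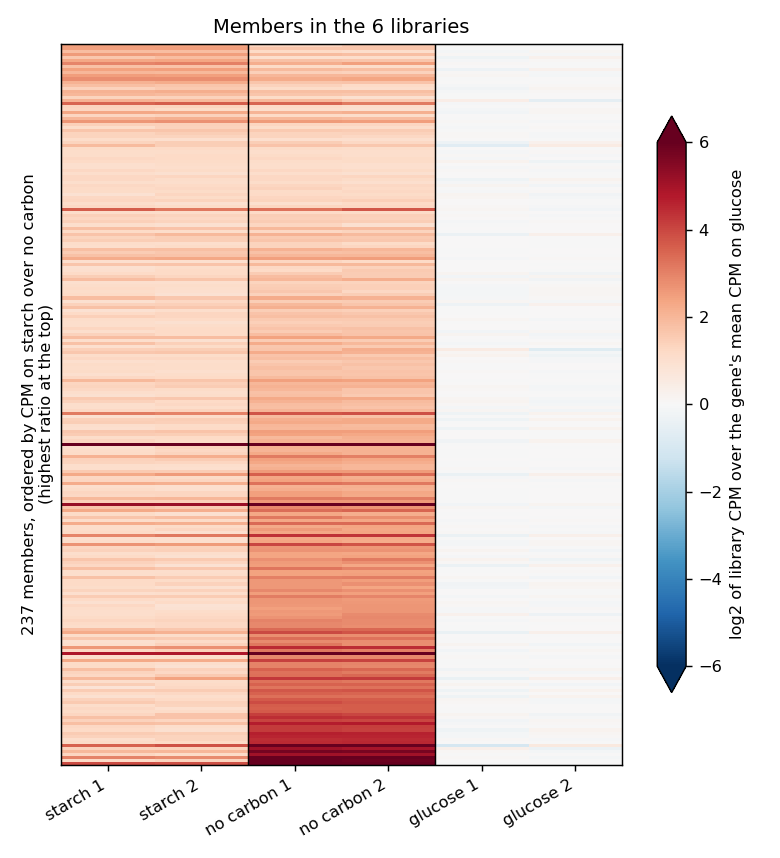
Rows are the 237 members, ordered from the highest to the lowest ratio of CPM on starch over no carbon, and columns are the 6 libraries; the colour is the log2 ratio of the library's CPM over the gene's mean CPM on glucose, and values beyond 6 take the end colour. The replicate columns look alike within each medium, and the no-carbon columns darken from top to bottom while the starch columns do not. The order of the rows fixes much of this darkening, and nothing is read from it.

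The ratio of starch over glucose lay close to the limit for many members. Its median was 2.43 (quartiles 2.16 and 3.18, highest 67.7), with 35 members at 4 or more and 9 at 8 or more. The ratio of no carbon over glucose was spread more widely, with a median of 4.29 (quartiles 2.91 and 7.60, highest 493), 132 members at 4 or more and 54 at 8 or more. How many genes met the limits depended on the scaling of the libraries. TMM factors, which scale libraries so that a typical gene is level, lowered the log2 ratios over glucose by 0.21 for starch and by 0.25 for no carbon and raised that of starch over no carbon by 0.04. Under TMM scaling 131 of the 237 genes still met every limit, and under RLE scaling 121. Fitted log2 fold changes in the text below come from edgeR with TMM scaling and so differ from the log2 of the CPM ratios.

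In the fit the members had a median log2 fold change of 1.07 for starch over glucose, against 0.04 over all 8718 genes tested, and of 1.85 for no carbon over glucose, against 0.02. For starch over no carbon the medians were -0.65 for the members and 0.01 for all genes tested. The standard errors of the members' fold changes had medians of 0.114, 0.101 and 0.0834 in the same order. By edgeR's quasi-likelihood test at an adjusted p under 0.05, 237 of 237 members were higher on starch than on glucose, where 36.1% of all genes tested were, and 237 were higher without carbon than on glucose, where 45.7% were. When the difference had to exceed 2-fold (glmTreat), the counts were 72 for starch over glucose and 189 for no carbon over glucose, with backgrounds of 2.09% and 21.4%. With library totals alone, the scaling of the rule, the first count was 120. The share over all genes was not counted under that scaling, so 2.09% is not its background. Both starch libraries lay above both glucose libraries for 237 members (65.2% of the 7636 genes with at least 3 CPM on starch), and so did both no-carbon libraries (51.4%). The rule used these contrasts, and nothing is read from the counts.

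Per kilobase of gene, the most abundant members on starch were Mycth_2069815, Mycth_82981, Mycth_2307942 and Mycth_2095639. Mycth_2069815, a short model of 408 bases, had 1209 and 1207 CPM on starch, 1425 and 1368 CPM without carbon, and 339.5 and 343 CPM on glucose. Starch was thus near starvation for this gene (fitted log2 fold change -0.17, SE 0.025), and both were well above glucose (1.62, SE 0.026, and 1.78, SE 0.026). Removal of the trend of fold change with gene length turned the first of these to 0.88 and moved the last to 0.60. Mycth_82981 (919 bases) took the largest share of reads of any member, with 2636 and 2588 CPM on starch, 5149 and 4960.5 CPM without carbon, and 1241 and 1284 CPM on glucose. Its starch level lay near the 2-fold limit over glucose, with a CPM ratio of 2.07 and a fitted fold of 1.79. Mycth_2095639 (920 bases) had 931 and 917 CPM on starch, 1882 and 1872 CPM without carbon, and 312 and 323 CPM on glucose. The media did not overlap for any of these genes.

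Of the next 4 members by RPKM on starch, 3 stood near their no-carbon level on starch and 1 far below it. Mycth_2309660 (943 bases) had 366 and 358 CPM on starch, 429 and 427 CPM without carbon, and 109.9 and 108 CPM on glucose. Mycth_109821 (2360 bases) had 556 and 562 CPM on starch, 671 and 663 CPM without carbon, and 175 and 172 CPM on glucose. Mycth_2316489 (807 bases) had 189.9 and 188 CPM on starch, 277 and 275 CPM without carbon, and 81.8 and 76.7 CPM on glucose. Each of these 3 genes stood on starch at 0.685 to 0.846 of its no-carbon CPM. With the length trend removed, the log2 fold change of starch over no carbon turned from -0.20 to 0.18 for Mycth_2309660 and from -0.50 to 0.04 for Mycth_2316489. Mycth_2140820 (2080 bases) had 484 and 489 CPM on starch, 2845 and 2761 CPM without carbon, and 213 and 225 CPM on glucose. Its starch level was 2.22 times the glucose level and 0.174 of the no-carbon level.

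**Figure D3:**
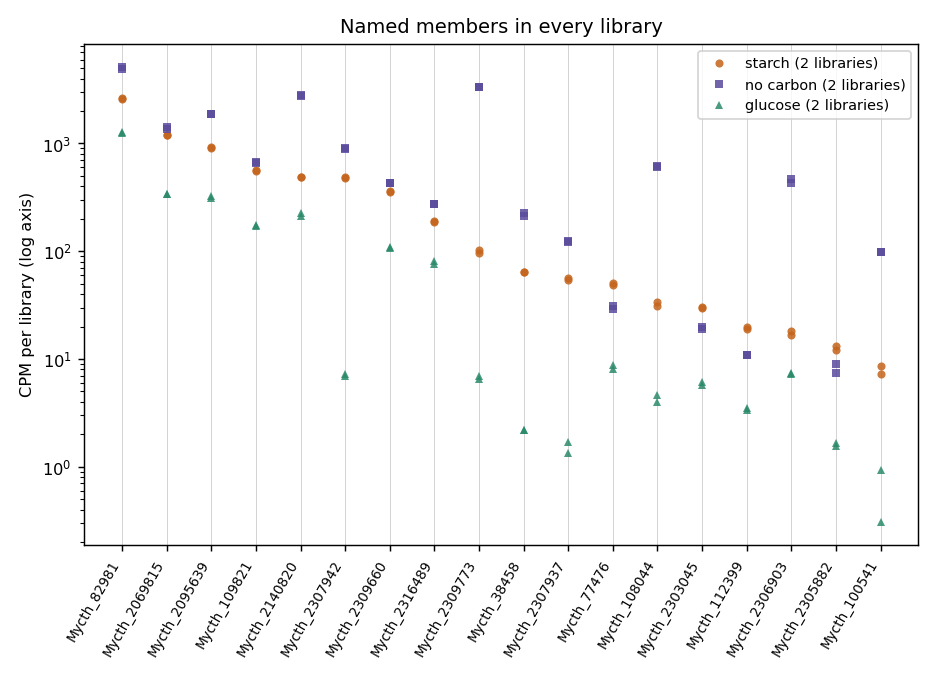
CPM of the members named by level or by ratio in each of the 6 libraries on a log axis, with circles for starch, squares for no carbon and triangles for glucose, ordered by mean CPM on starch. The glucose triangles are the lowest for every gene, and no carbon exceeds starch for all but Mycth_77476, Mycth_2303045, Mycth_112399 and Mycth_2305882.

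Among members with at least 10 CPM on starch, the 5 largest fitted differences between starch and glucose belonged to Mycth_2307942, Mycth_2307937, Mycth_38458, Mycth_2309773 and Mycth_2305882. Mycth_2307942, a model of 301 bases, had 485 and 476 CPM on starch, 912 and 887 CPM without carbon, and 6.99 and 7.19 CPM on glucose. The fitted difference over glucose was 58.6-fold on starch (log2 fold change 5.87, SE 0.043) and 107-fold without carbon (6.74, SE 0.041). On starch the gene had 0.534 times its no-carbon CPM (log2 fold change -0.86, SE 0.022). With the length trend removed this last value became 0.31 and the one for no carbon over glucose 5.40. Per kilobase, Mycth_2307942 reached 1596 ± 19.6 RPKM on starch, 2988 ± 57.4 RPKM without carbon and 23.6 ± 0.470 RPKM on glucose (mean ± SD, n = 2).

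Mycth_2307937 (1068 bases) had 56.2 and 53.9 CPM on starch, 125 and 122 CPM without carbon, and 1.33 and 1.69 CPM on glucose, a fitted 31.2-fold difference of starch over glucose (log2 fold change 4.96, SE 0.108). Mycth_38458 (525 bases) had 64.2 and 63.8 CPM on starch, 224 and 214 CPM without carbon, and 2.19 and 2.20 CPM on glucose, and its fitted difference of starch over glucose was 25.2-fold (4.66, SE 0.092). With the length trend removed, its log2 fold change without carbon over glucose became 5.39 in place of 6.39, and starch over no carbon -0.85 in place of -1.73. These 2 genes and Mycth_2307942 shared an order in which no carbon was highest and starch lay nearer to no carbon than to glucose on the log2 scale. Mycth_2305882 (1426 bases) was the last of the 5 and had the other order. It had 12.2 and 13.1 CPM on starch, 7.42 and 8.97 CPM without carbon, and 1.68 and 1.57 CPM on glucose, a fitted 6.75-fold difference of starch over glucose (2.75, SE 0.172).

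Mycth_2305882, at a CPM ratio of 7.77, was not among the 9 members with at least 8 times their glucose CPM on starch. Those 9 include the marker Mycth_100541 (12.9, described below). They also include 4 other rare transcripts, which are named after their values were seen. Mycth_2308162 had 3.59 and 4.00 CPM on starch, 3.62 and 2.82 CPM without carbon, and 0.306 and 0.338 CPM on glucose. Mycth_53698 had 4.57 and 3.39 CPM on starch, 3.57 and 4.91 CPM without carbon, and 0.408 and 0.338 CPM on glucose. In both genes the starch and no-carbon libraries overlapped and the glucose libraries lay apart. Mycth_90182 had 6.43 and 7.49 CPM on starch, 16.7 and 16.4 CPM without carbon, and 0.664 and 1.02 CPM on glucose. Mycth_2309782 had 5.41 and 4.79 CPM on starch, 8.29 and 8.86 CPM without carbon, and 0.510 and 0.719 CPM on glucose. In all, 9 members had a mean under 1 CPM on glucose.

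Some members had far higher levels without carbon than on starch. On starch, 29 of the 237 members (12.2%) had less than 0.25 of their no-carbon CPM. The share over all genes was not counted, and the choice of members favours such values, so nothing is read from this count. The median of these 29 members was 10.4 CPM on starch, 81.4 CPM without carbon and 4.07 CPM on glucose. Mycth_2309773 (824 bases) was the extreme case, with 103 and 97.0 CPM on starch, 3357 and 3308 CPM without carbon, and 6.58 and 6.94 CPM on glucose. Its no-carbon level was 414-fold above glucose in the fit (log2 fold change 8.69, SE 0.044, or 8.10 with the length trend removed), and its starch level was 12.8-fold above glucose (3.68, SE 0.052). Mycth_108044 (1627 bases) had 33.6 and 31.0 CPM on starch, 622 and 609.5 CPM without carbon, and 4.59 and 4.02 CPM on glucose. Mycth_2306903 (1327 bases) had 16.8 and 18.3 CPM on starch, 464 and 433 CPM without carbon, and 7.45 and 7.19 CPM on glucose. For these genes the starch level was 0.0300, 0.0524 and 0.0391 of the no-carbon level.

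Mycth_100541, the gene given as the marker of the set, belonged to the same class. This model of 294 bases had 164 and 199 reads on starch (7.28 and 8.66 CPM), 2144 and 1730 reads without carbon (98.3 and 97.6 CPM), and 6 and 22 reads on glucose (0.306 and 0.931 CPM). The media did not overlap, and the spread on glucose was the widest of any member relative to its mean (SD 71.4% of the mean). The read ratio of starch over glucose was 12.3, with a 95% counting interval of 8.38 to 18.8 (exact Clopper-Pearson), and that of no carbon over glucose was 151, with an interval of 104 to 228. These intervals cover counting error only. Without glucose replicate 2 the fitted log2 fold changes over glucose were 4.47 for starch in place of 3.41 and 8.05 for no carbon in place of 6.98. Removal of the length trend gave 5.64 for no carbon over glucose and -2.39, in place of -3.58, for starch over no carbon. Starch was the middle medium of this gene, nearer to glucose than to starvation in CPM and at 0.505 of the way from glucose to no carbon on the log2 scale.

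At the other end, 44 members had at least as many CPM on starch as without carbon, with medians of 30.8 CPM on starch, 24.7 CPM without carbon and 7.29 CPM on glucose. Mycth_112399 (1250 bases) had 18.8 and 19.7 CPM on starch, a mean of 10.9 ± 0.118 CPM without carbon (SD, n = 2), and 3.37 and 3.51 CPM on glucose (starch over no carbon 0.86 on the log2 scale, SE 0.101). Mycth_77476 (1623 bases) had 50.2 and 48.4 CPM on starch, 31.2 and 29.1 CPM without carbon, and 8.73 and 8.12 CPM on glucose (0.75, SE 0.068). Mycth_2303045 (1512 bases) had 29.5 and 30.6 CPM on starch, a mean of 19.4 ± 0.588 CPM without carbon (SD, n = 2), and 5.72 and 6.13 CPM on glucose (0.67, SE 0.081). In these genes starch was the highest of the media and no libraries of different media overlapped. In all, 9 members had 1.5 times or more of their no-carbon CPM on starch, and their mean on starch lay between 11.2 CPM for Mycth_84047 and 49.3 CPM for Mycth_77476.

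Between these ends, 95 members had from 0.5 up to 1 of their no-carbon CPM on starch and 69 had from 0.25 up to 0.5. Counted differently, 96 members had a starch level within 1.5-fold of the no-carbon level. On a log2 scale from 0 (glucose) to 1 (no carbon), starch stood at a median of 0.663 (quartiles 0.474 and 0.915), and 68 members stood below 0.5. Ordered from the class with starch at or above no carbon to the class below 0.25, the fitted log2 fold changes of starch over glucose had medians of 1.46, 1.01, 1.06 and 1.11. Those of no carbon over glucose had medians of 1.05, 1.48, 2.53 and 3.94. The classes were set by starch over no carbon among genes with at least 2 times the glucose level on starch, which fixes much of this order, and nothing is read from it.

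**Figure D4:**
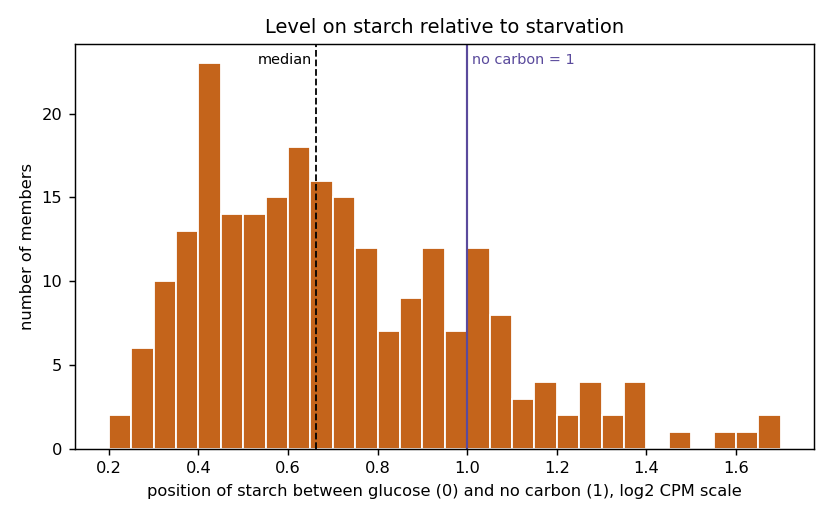
Number of members by the position of their starch level on the log2 CPM scale, where 0 is the gene's mean on glucose and 1 its mean without carbon. The dashed line marks the median of 0.663; members right of the solid line at 1 had a higher level on starch than without carbon.

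Between starch and no carbon the rule set an upper limit only. Of the members, 193 had a lower mean CPM on starch, against 46.1% of the 7636 genes with at least 3 CPM there. Both starch libraries lay below both no-carbon libraries for 182 members, against a background of 43.9%, and above both for 29, against 51.4%. The remaining 26 members had overlapping libraries. By edgeR's quasi-likelihood test at an adjusted p under 0.05, 166 members were lower on starch, where 44.7% of the 8718 genes tested were, and 25 were higher, where 45.3% were. With removal of the length trend the second count became 38, and the share over all genes was not counted there. Members had to be high without carbon and below 2 times that level on starch, and such a choice favours lower values on starch, so nothing is read from these counts.

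The members just inside and outside the limits show how finely the set was divided. At the floor of 3 CPM on starch, Mycth_2305640 and Mycth_2308580 were inside with 3.01 and 3.06 CPM, and Mycth_2064957 and Mycth_2124691 were outside with 2.99 CPM each. At the limit of starch over glucose, Mycth_2092577 and Mycth_2299851 were inside at ratios of 2.001 and 2.002, and Mycth_2297239 and Mycth_2310760 were outside at 1.999 each. At the limit of no carbon over glucose, Mycth_2302775 and Mycth_2111125 were inside at 2.004 each, and Mycth_2312616 and Mycth_2069956 were outside at 1.992 and 1.988. The upper limit of starch over no carbon was less crowded, with Mycth_2310317 and Mycth_112399 inside at 1.931 and 1.761, and Mycth_61442 and Mycth_102522 outside at 2.082 and 2.261. At the first 3 limits, the genes inside and outside differed by less than the spread between replicates.

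Replicates of the members were close to each other, but less so than those of all 7636 genes with at least 3 CPM on starch. The median gap in log2(CPM + 0.5) was 0.0833 against 0.0521 on starch and 0.0658 against 0.0602 without carbon. On glucose it was 0.0862 against 0.0522. The members also had lower levels, with a median RPKM of 12.6 against 29.9 on starch and 4.53 against 25.3 on glucose. Without carbon the median RPKM was 23.1 against 27.9. A part of level in the wider gaps was not tested. The SD was a median of 4.41% of the mean on starch, 3.30% without carbon and 4.83% on glucose. Read on replicate 1 of each medium alone, 209 of the 237 members met every limit, and on replicate 2 alone 201 did. When the lower library of the higher medium had to pass against the higher library of the other, 166 members passed. By log2(CPM + 0.5), the widest gap on starch was that of Mycth_80233, with 2.57 and 3.57 CPM. The widest gaps without carbon and on glucose both belonged to Mycth_95817 (591 bases), with 5.41 and 7.67 CPM without carbon and 2.35 and 1.02 CPM on glucose, next to 4.53 and 4.66 CPM on starch. Without glucose replicate 1 the log2 fold changes of Mycth_95817 over glucose were 1.96 for starch in place of 1.29 and 2.41 for no carbon in place of 1.74. With the length trend removed, its log2 fold change of starch over no carbon turned from -0.45 to 0.35, and that of no carbon over glucose became 0.83.

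Position along the chromosomes was not used by the rule. In the gene order of the RefSeq table (assembly ASM22609v1, used for order only, since the build behind the counts is not named), 30 of 237 members, 12.7%, stood directly next to another member, against 4.92% of the 8850 other matched genes that stood next to a member. Counted within 2 genes, 40 of 237 members (16.9%) and 841 of 8850 other genes had a member near them. The neighbours formed 14 runs, 2 of 3 members and 12 of 2 members. These shares are descriptions without a test, and neighbouring genes can share reads where their models touch. Members in 2 of the runs had models that abut, Mycth_2307942 with Mycth_2307943 and Mycth_2298517 with Mycth_2298519. With no strand setting given, reads at such a border cannot be told apart.

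The first run of 3 held the gene with the largest starch over glucose ratio. Mycth_2307937 and Mycth_2307942 are described above, and Mycth_2307943 (2752 bases), next in order, had 4.44 and 5.53 CPM on starch, 11.1 and 9.36 CPM without carbon, and 0.715 and 1.14 CPM on glucose. These neighbours had nearly the same CPM ratio of starch over no carbon, at 0.446, 0.534 and 0.486. The genes directly on either side had another order of media. Mycth_2307935 had 30.9 and 29.6 CPM on starch, 16.7 and 15.1 CPM without carbon, and 18.5 and 21.5 CPM on glucose, and Mycth_117073 had 54.0 and 59.4 CPM on starch, 12.6 and 12.9 CPM without carbon, and 21.8 and 24.0 CPM on glucose. Both were higher on starch than in either other medium. Further out, Mycth_2307932 and Mycth_2307957 had the order of this run. Their mean CPM were 26.4 and 83.4 without carbon, 8.12 and 39.0 on starch, and 5.17 and 35.8 on glucose. The other flanking genes did not have this order.

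The second run of 3 was less uniform in starch over no carbon but more uniform in starch over glucose. Its CPM ratios of starch over glucose were 3.39, 2.14 and 2.83, where the quartiles over all members were 2.16 and 3.18. Its CPM ratios of no carbon over glucose were 3.74, 6.13 and 24.8. Mycth_2312984 (1449 bases) had 46.0 and 42.6 CPM on starch, 49.7 and 48.1 CPM without carbon, and 13.1 CPM in both glucose libraries. Mycth_2131244 (930 bases) had 3.24 and 3.83 CPM on starch, 10.4 and 9.93 CPM without carbon, and 1.79 and 1.52 CPM on glucose. Mycth_2312987 (1413 bases) had 10.6 and 10.2 CPM on starch, 93.1 and 89.4 CPM without carbon, and 3.37 and 3.98 CPM on glucose. Their ratios of starch over no carbon were 0.905, 0.348 and 0.114, so the relation of starch to starvation differed between these neighbours. The rule set the low glucose level of every member, so nothing is read from its presence in all of these genes. Of the flanking genes, Mycth_2312981, Mycth_2312992 and the rare Mycth_2071955 also had their highest mean without carbon and their lowest on glucose. The other flanking genes did not.

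**Figure D5:**
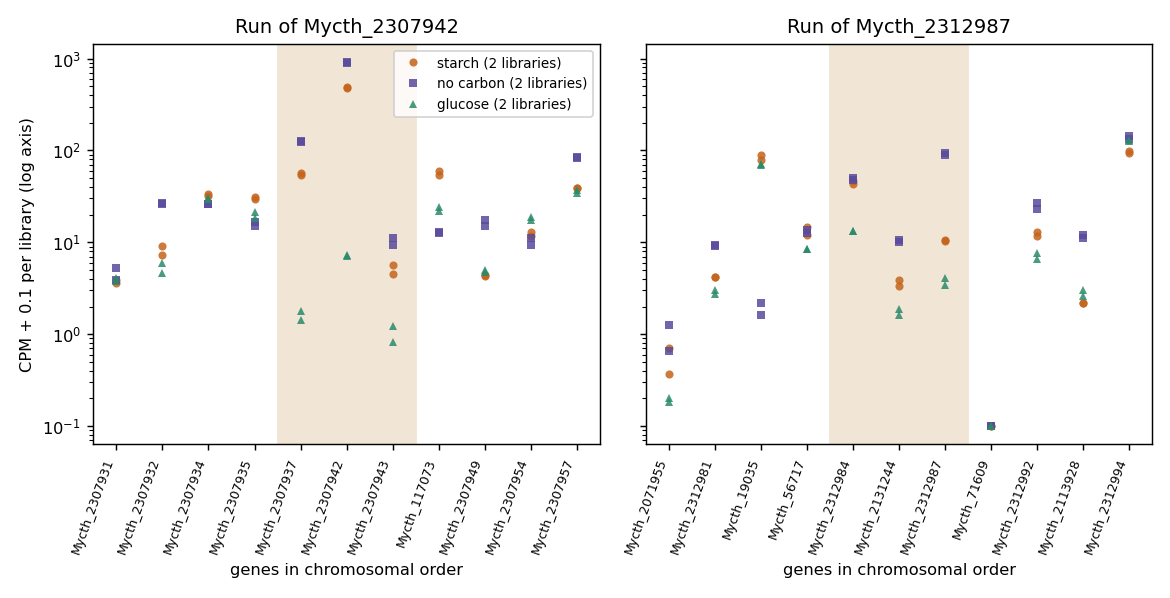
CPM + 0.1 in each library, on a log axis, for the 2 runs of 3 neighbouring members (shaded) and the 4 genes on either side in chromosomal order, with circles for starch, squares for no carbon and triangles for glucose. In the run of Mycth_2307942 the glucose values lie far below both other media for Mycth_2307937 and Mycth_2307942, and no flanking gene shows a gap of that size; in the run of Mycth_2312987 the gap between starch and no carbon widens from 1 gene to another.

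Among the runs of 2, named after their values were seen, Mycth_2298517 and Mycth_2298519 had nearly the same ratios. Mycth_2298517 had 41.7 and 40.1 CPM on starch, 89.6 and 98.2 CPM without carbon, and 8.73 and 8.72 CPM on glucose. Mycth_2298519 had 15.6 and 14.6 CPM on starch, 32.7 and 30.6 CPM without carbon, and 3.37 and 3.38 CPM on glucose. Their starch over no carbon ratios were 0.436 and 0.477, and the models abut, so shared reads were not tested as a part of this likeness. Mycth_2309615 and Mycth_2309616 both belonged to the class far higher without carbon. Mycth_2309615 had a mean of 12.3 ± 0.509 CPM on starch (SD, n = 2), 83.2 and 79.7 CPM without carbon, and 4.44 and 5.42 CPM on glucose. Mycth_2309616 had 43.2 and 43.5 CPM on starch, 214 and 206 CPM without carbon, and 18.4 and 18.7 CPM on glucose. In contrast, Mycth_2308143 and Mycth_2308145 stood on opposite sides of starvation, with starch over no carbon ratios of 0.527 and 1.63.

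The members' median length, as implied by the deposited RPKM, was 1296 bases (quartiles 875 and 1950), against 1670 bases (quartiles 1154 and 2325) for all 7636 genes with at least 3 CPM on starch. The 1570 genes that were at least 2-fold above glucose without carbon but not on starch had a median of 1382 bases. The 142 genes with at least 2 times both other levels on starch had a median of 1654 bases. Within the members, those with starch at or above no carbon had a median of 1490.5 bases, against 1237, 1172 and 1327 bases in the classes with falling starch over no carbon. Across the genes tested, length went with the fold changes that involve the no-carbon medium. The 3221 tested genes shorter than the median member had a median fitted log2 fold change of 0.57 for no carbon over glucose, and the 5497 longer ones -0.24. For starch over glucose these medians were 0.05 and 0.03. For starch over no carbon they were -0.54 and 0.27. With the trend of fold change with length removed, the members' median log2 fold change was 1.03 for starch over glucose, 1.78 for no carbon over glucose and -0.60 for starch over no carbon. Without the removal these medians were 1.07, 1.85 and -0.65.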

How the data were processed

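The authors deposited raw read counts and RPKM (reads per kilobase and 1000000 counted reads) for 9110 genes in 6 RNA-seq libraries. Per the submitters' processing notes, TopHat2 2.0.8b and HTSeq 0.5.4p2 were used. Their settings, strand handling and genome build were not given in the sources used here. Gene lengths and levels between genes come from the deposited RPKM (implied lengths were whole for 100.0% of 8989 genes, within 0.001 bases). The p-values behind the counts of calls reflect differences between library replicates alone, and these may be technical.

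Members and lists were chosen with earlier results of these data known. CPM for the rule used library totals. The fit used R 4.3.3 and edgeR 4.0.16 on counts of 8718 genes passing filterByExpr (392 did not), with TMM factors, all 6 libraries, no covariate, robust glmQLFit, and Benjamini-Hochberg adjustment at 0.05; glmTreat tested for more than 2-fold. All 237 members passed the filter. Each standard error was taken as the absolute log2 fold change over the root of its F statistic. The script was tested on simulated data. Alternatives used DESeq2 1.42.0, other scalings and filters, libraries left out, a replicate block, and a loess removal of the length trend.

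Genes were named by a rule: the marker, the 8 highest by RPKM on starch, the 5 largest fitted fold changes of starch and of no carbon over glucose (at least 10 CPM in the higher medium), the 3 highest and lowest of starch over no carbon (at least 10 CPM without carbon), the 2 nearest on each side of each limit, the runs of 3 neighbours, and the widest replicate gaps. Others are marked. Word patterns for function had no annotation text to act on, so no list was used.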

Additional observations from a re-analysis of the deposited data

How the results depend on the processing

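The number of genes meeting the limits was 131 with TMM-scaled CPM, 121 with RLE-scaled CPM (chosen after seeing the data), 155 with a floor of 10 CPM and 60 with 3-fold over glucose. The 131 and the 121 genes were all among the 237. Leaving out 1 library at a time gave 234 to 265 genes. Upper quartile scaling moved the members' median log2 fold changes to 1.11 for starch over glucose, 1.98 for no carbon over glucose and -0.75 for starch over no carbon, and library totals alone gave 1.28 and 2.10 for the first 2. Totals also raised to 120 the count of members called beyond 2-fold for starch over glucose. Shares over all genes were not counted under the alternative settings. Removal of the length trend gave a median of 1.03 for starch over glucose and 38 members higher on starch than without carbon. Leave-one-out medians were 1.06 to 1.09 for starch over glucose, 1.84 to 1.96 for no carbon over glucose and -0.70 to -0.64 for starch over no carbon, and counts beyond 2-fold over glucose were 61 to 70 for starch and 185 to 190 for no carbon. TMM factors set every log2 ratio over glucose lower than library totals do, by 0.21 for starch and 0.25 for no carbon, the size of the move under totals. The cause of the other moves was not tested. Of 167 alternative values of the main results, 154 stayed within the limit set for their kind. That limit was the replicate spread for median fold changes and 1.5 times the count for counts. It was the exact binomial interval for the share of neighbours and the SD of member lengths for the median length. Of 1755 values for named genes, 1455 stayed within the SE of the main fit and 293 moved further. The other 7 turned direction where the main fit had an edgeR adjusted p under 0.05. All 7 were for starch over no carbon. With the length trend removed these were Mycth_2069815 (0.88), Mycth_2307942 (0.31), Mycth_2309660 (0.18), Mycth_2316489 (0.04), Mycth_95817 (0.35) and Mycth_2302775 (-0.38), and with upper quartile scaling Mycth_2302775 (-0.01). Turns of values without such a p were not counted among these 7, such as that of Mycth_2124691 from -0.28 to 0.38 with the length trend removed.

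With the replicate number as a block the medians were 1.07, 1.85 and -0.65, and the counts beyond 2-fold over glucose were 71 for starch and 190 for no carbon. The numbers do not pair the libraries: deviations from the group means correlated across 8718 genes at -0.04 (starch and no carbon), -0.029 (starch and glucose) and 0.005 (no carbon and glucose). The planned counts of promoter motifs and protein stretches were not run, since no sequence tables were used here. Depth on glucose was low for 2 members, which had at most 20 reads over both glucose libraries.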

Other observations

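The 5 genes that met the limits and were set aside with the rule had mean levels of 3.08 to 364 CPM on starch, 6.17 to 199 CPM without carbon and 0.110 to 53.5 CPM on glucose. Mycth_66729 had the largest share of reads among them, with 367 and 362 CPM on starch, 201 and 196 CPM without carbon, and 54.0 and 53.0 CPM on glucose. Mycth_115968 and Mycth_46583 were likewise higher on starch than without carbon, with ratios of 1.48 and 1.25. Mycth_100518 and Mycth_66804 were lower on starch than without carbon, with ratios of 0.499 and 0.571. Below the floor of 3 CPM on starch, 308 further genes met the 3 limits of fold.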
